A study of Mus musculus with 12 samples.

Results

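MC38 cells, a mouse colorectal cancer line, were profiled by RNA sequencing in 4 groups of 3 libraries. The groups were untreated controls, cells given nintedanib at 3 µM, cells given 8 Gy of X-rays, and cells given both. Nintedanib is a small-molecule drug that blocks the receptor tyrosine kinases for PDGF, FGF and VEGF. The treatments lasted 24 hours per the labels, which give no time and no vehicle for the controls, and the experiment was described as repeated independently 3 times. Described here are 9 genes of the acyl-CoA thioesterase and acyl-CoA synthetase families, of 54532 genes in the table: the thioesterases Acot1, Acot2, Acot7, Acot8 and Acot9, the long-chain synthetases Acsl1, Acsl3 and Acsl5, and Acsbg1 of the bubblegum synthetase family. They were chosen by name, with results of these same 4 groups already known, and which values led to the choice is not recorded. Their levels and fold changes are therefore given as a description. Whether a member's value passed the threshold of the fit across all genes is stated as part of that description, with no p-value, and supports no statement on the members.

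Acyl-CoA synthetases join a fatty acid to coenzyme A at the cost of ATP, which traps the fatty acid in the cell and opens the routes to oxidation, membrane lipids and stored triglyceride. Acyl-CoA thioesterases run the opposite step and release the free fatty acid and coenzyme A. Members of both families differ in the chain lengths they prefer and in the compartment they work in, so cytosol, mitochondria, peroxisomes, endoplasmic reticulum and lipid droplets each have their own set. In liver, several thioesterase and synthetase genes are known targets of the nuclear receptor PPARα.

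Levels are FPKM, fragments scaled to gene model length and to a factor for each library that is close to its depth. Differences are log2 fold changes of FPKM + 1 with their standard error (SE) from a limma fit across all genes. This scale understates changes of genes at low FPKM. A gene was tested where it reached an FPKM of 1 in at least 3 libraries, which 13012 genes did, and was called where its p-value adjusted over all of them was under 0.05. Acot1 was the only member that did not reach this level, and counts of called members are over the other 8. In bulk RNA, fewer cells of a kind and less RNA per cell cannot be told apart.

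The libraries held 16103528 to 18196615 fragments. The third nintedanib library had the highest share of mitochondrial fragments, 2.12% against 1.23 to 1.64% in the other libraries, and members' values against control without it are given with each gene. The cells expressed all 4 mesenchymal markers examined, at a summed 1265 to 1591 FPKM, and of 6 epithelial markers only Cdh1 reached an FPKM of 1. The summed epithelial markers were 4.30 to 4.96 FPKM in the controls and 8.39 to 9.13 with both treatments. Their part in the results was not tested. Markers of hepatocytes and adipocytes, tissues rich in these enzymes, each stayed at or under 0.133 FPKM in sum. Leukocyte markers stayed at or under 0.0379 FPKM in sum. Of 4 endothelial markers only Tek reached an FPKM of 1, at 0.61 to 2.02 FPKM over the libraries.

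The promoter sequences of the members that the values turn on are shown first, as 250 bases before and 50 after the RefSeq start site, 5′ to 3′ on the gene's strand, in GRCm38.p6. All 9 members had at least 1 window, 10 windows in all. The window of Acot7 lies inside the gene as deposited. Its last bases, the only part looked up, were in no GENCODE M21 transcript of Acot7. The window of Acsl5 and the second of Acsl1 also lie inside their genes, but the last bases of each were in a transcript of the gene. Acot2 and Acsbg1 are shown because they had the widest ranges of level over the 4 groups, and Acot1 because it is the close paralog beside Acot2 and was near 0. The Acot2 window lies at chr12:83987611-83987910 and the Acot1 window at chr12:84009252-84009551, both on the plus strand, and the Acsbg1 window at chr9:54661836-54662135 on the minus strand. None of these 3 windows held any motif searched, so no base is in capitals.
Acot2: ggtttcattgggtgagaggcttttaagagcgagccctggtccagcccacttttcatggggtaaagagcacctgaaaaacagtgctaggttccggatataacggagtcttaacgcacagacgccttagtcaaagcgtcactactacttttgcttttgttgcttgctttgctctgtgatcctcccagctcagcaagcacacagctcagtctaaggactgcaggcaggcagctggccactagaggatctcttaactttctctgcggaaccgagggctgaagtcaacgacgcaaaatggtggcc
Acot1: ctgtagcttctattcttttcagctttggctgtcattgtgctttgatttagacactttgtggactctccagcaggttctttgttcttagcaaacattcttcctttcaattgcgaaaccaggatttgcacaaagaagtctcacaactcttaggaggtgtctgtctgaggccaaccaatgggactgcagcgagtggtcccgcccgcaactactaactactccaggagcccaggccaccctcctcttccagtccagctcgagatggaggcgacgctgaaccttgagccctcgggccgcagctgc
Acsbg1: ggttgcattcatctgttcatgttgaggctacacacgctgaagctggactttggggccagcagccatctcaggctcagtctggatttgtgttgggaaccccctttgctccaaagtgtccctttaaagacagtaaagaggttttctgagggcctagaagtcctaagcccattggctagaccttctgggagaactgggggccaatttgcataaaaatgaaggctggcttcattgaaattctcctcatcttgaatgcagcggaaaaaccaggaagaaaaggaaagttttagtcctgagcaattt
Over the whole window the Acot1 and Acot2 promoters were 50.3% identical in a global alignment, no more than the 50.6% between Acot2 and the unrelated Acsbg1. The longest run of identical bases was 9 in each of these pairs.

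The motifs searched, on both strands, were TGATGNAA (the core of the composite site of ATF4 and CHOP), CACGTG (an E-box), TCACNCCAC (a sterol regulatory element bound by SREBP) and AGGNCANAGGNCA (the direct repeat bound by PPAR with RXR). Of 32851 RefSeq windows of the same length, 3.97%, 7.15%, 1.24% and 0.381% held them. Among the 10 member windows there was 1 match, a sterol element in the second of the Acsl1 windows, at chr8:46490716-46491015 on the plus strand. This window belongs to a start site inside the gene, which as deposited begins at 46471037. The window is shown with the match in capitals, which begins at position -76 from that start site and reads as the motif on the opposite strand.
Acsl1: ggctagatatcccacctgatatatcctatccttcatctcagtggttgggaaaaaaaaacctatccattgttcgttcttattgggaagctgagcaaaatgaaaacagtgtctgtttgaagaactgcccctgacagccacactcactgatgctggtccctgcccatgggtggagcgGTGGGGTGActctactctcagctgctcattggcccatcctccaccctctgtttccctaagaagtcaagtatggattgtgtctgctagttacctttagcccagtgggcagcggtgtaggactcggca
A match is a run of letters and not a measured site. The windows without a match show only that these letters are absent there.

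In untreated MC38 cells the thioesterases Acot9, Acot7 and Acot2 had the highest levels of the 9 genes. Acot9, a mitochondrial thioesterase, stood at 66.2 ± 1.88 FPKM (SD, n = 3), Acot7 at 59.9 ± 3.90 and Acot2 at 48.7 ± 3.63. The synthetases Acsl5, at 32.9 ± 0.695, and Acsl3, at 18.4 ± 0.992, followed. Acot8 at 8.11 ± 0.607, Acsl1 at 6.31 ± 0.277 and Acsbg1 at 3.70 ± 0.0610 came next. No neighbours in this order had overlapping libraries. With nintedanib the order changed: Acsl3 and Acsl5 overlapped at 31.1 ± 4.54 and 29.8 ± 2.57, and Acot2 stood at 7.57 ± 1.55 and overlapped with its neighbours Acsl1 at 8.65 ± 0.532 and Acot8 at 7.36 ± 1.01. With X-rays Acsbg1, at 10.1 ± 0.516, stood above Acot8 and Acsl1 without overlap. With both treatments Acot8, Acsl1 and Acot2 lay close together, at 8.07 ± 0.212, 7.65 ± 0.387 and 7.34 ± 2.08, and each overlapped with the next.

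**Figure D1:**
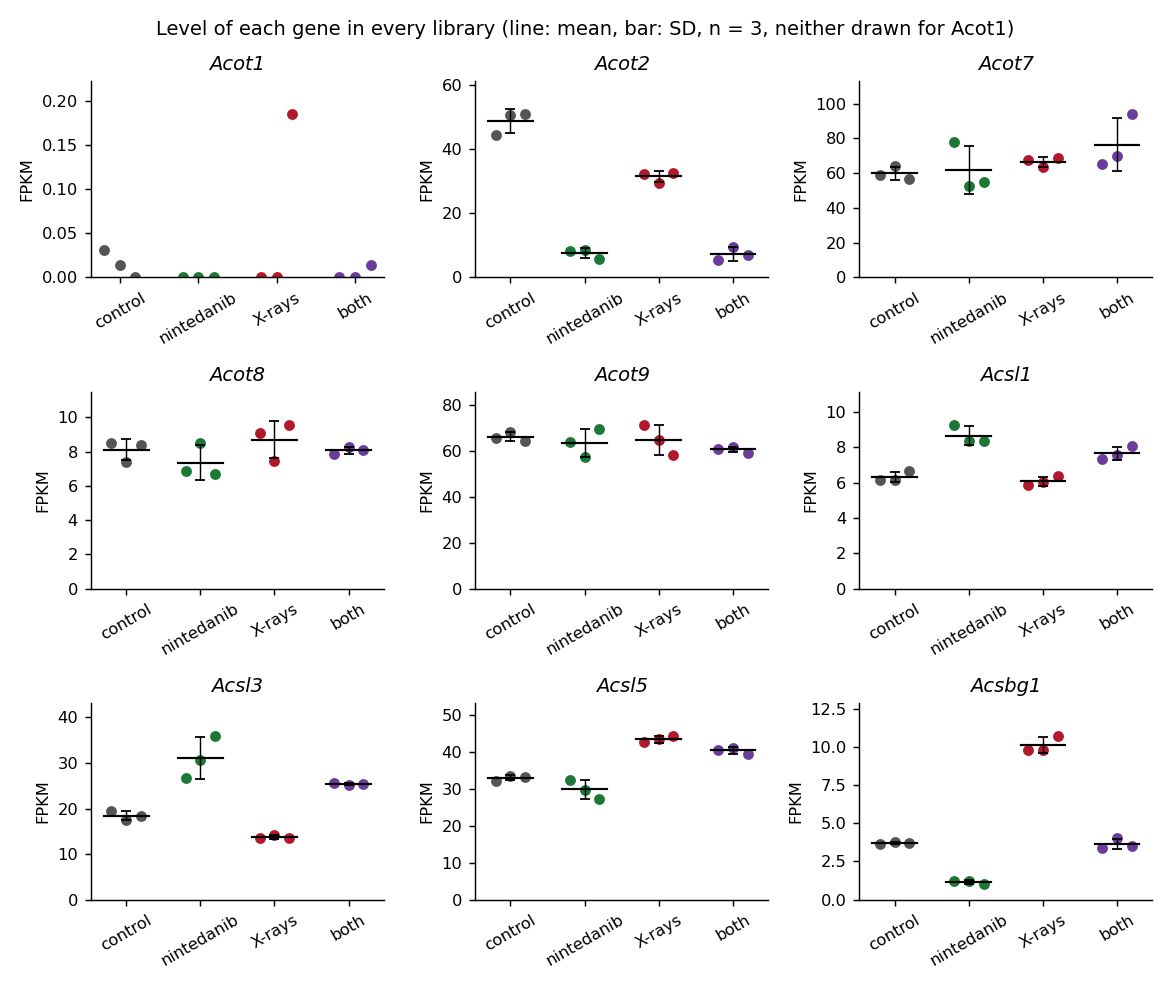
FPKM of the 9 genes in every library, with the mean as a line and the SD as a bar (n = 3) except for Acot1, on axes that start at 0 and differ between panels. Acot2 is low in all 6 libraries with nintedanib, Acsbg1 is high with X-rays and low with nintedanib, and the groups of Acot8 and Acot9 lie close together.

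Acot2 encodes a mitochondrial thioesterase for long-chain acyl-CoA and had, with Acsbg1, the widest range of the members over the group means. On the scale of log2(FPKM + 1) the range was 2.60 for Acot2 and 2.36 for Acsbg1. The order of this pair depends on the pseudocount: with 0.1 the ranges were 2.75 and 3.02, and mean FPKM spanned 6.64-fold for Acot2 and 8.70-fold for Acsbg1. Its level was 44.5, 50.6 and 51.0 FPKM in the control libraries, 8.25, 8.67 and 5.80 with nintedanib, 32.3, 29.5 and 32.6 with X-rays, and 5.55, 9.62 and 6.85 with both. The libraries with nintedanib, irradiated or not, overlapped with each other and lay far below the rest, and the X-ray libraries lay between them and the controls. Mean FPKM was 6.43-fold lower with nintedanib than in controls, a log2 difference of -2.55 (SE 0.168), and 6.64-fold lower with both treatments, a log2 difference of -2.60 (SE 0.168). Without the third nintedanib library the difference from control was -2.39.

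X-rays alone went with a smaller difference in Acot2, 1.55-fold lower than control, or -0.61 (SE 0.168). This value passed the threshold, and lost its call when any of the X-ray libraries, control library 2 or control library 3 was left out, or with no filter on low values, at -0.67 to -0.51 over all 21 alternatives. Among nintedanib-treated cells, X-rays made a difference of -0.05 (SE 0.168), with a 95% interval of -0.42 to 0.32, and of -0.21 without the third nintedanib library. In irradiated cells nintedanib made a difference of -1.99 (SE 0.168). The difference between the effects of nintedanib with and without X-rays, the interaction, was 0.56 (SE 0.238), with an interval of 0.04 to 1.08, and was not called over all genes.

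The Acot2 gene lies at chromosome 12, 83987861 to 83993873, at the start of a cluster of 6 type I thioesterase genes that spans 123 kb (all coordinates are GRCm38). Only Acot2 was expressed at more than a trace. Over all 12 libraries Acot2 had 10882 fragments, Acot1 17, Acot6 7, Acot3 2, and Acot4 and Acot5 0. Acot1, the cytosolic paralog whose start lies 21.6 kb from that of Acot2, was at 0 in 8 libraries and had 13 of its 17 fragments in the third X-ray library, at 0.186 FPKM. A count of 0 allows up to 3 fragments in a library, or 0.0468 FPKM for Acot1, with counting error as the only source. In GENCODE M21, 24.5% of the 50-base stretches of Acot2 transcripts also occur in Acot1, and 13.6% of those of Acot1 in Acot2. How the authors' counting divided fragments from such stretches is not given in the sources used here, so the split between this pair is uncertain.

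Acot7, a mainly cytosolic thioesterase best known from brain, stood at 58.7, 64.2 and 56.7 FPKM in controls, 77.7, 52.6 and 54.8 with nintedanib, 67.6, 63.4 and 68.5 with X-rays, and 65.2, 70.1 and 94.2 with both. The third library with both treatments was the highest of all, and the first nintedanib library was also high for its group. Nintedanib against control was at 0.02 (SE 0.155), and at 0.10 without nintedanib library 3. All libraries with both treatments lay above all controls, at 0.33 (SE 0.155) on the log2 scale, which was not called. It was called in 3 of 21 alternatives, with FPKM scaled to a common sum (0.40), with voom, and without the first nintedanib library.

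Acot8, the main peroxisomal thioesterase, was at 8.51, 7.41 and 8.41 FPKM in controls, 6.85, 8.52 and 6.71 with nintedanib, 9.06, 7.47 and 9.56 with X-rays, and 7.85, 8.28 and 8.07 with both. Every pair of groups overlapped. The 95% intervals against control ran from -0.35 to 0.09 for nintedanib, from -0.13 to 0.31 for X-rays and from -0.23 to 0.22 for both. Acot9 stood at 65.8, 68.2 and 64.5 FPKM in controls, 63.9, 57.1 and 69.4 with nintedanib, 71.3, 64.7 and 58.2 with X-rays, and 60.9, 61.6 and 59.2 with both. Its intervals against control were -0.25 to 0.13, -0.23 to 0.15 and -0.32 to 0.06 in the same order. Without the third nintedanib library the value against control went from -0.13 to -0.07 for Acot8 and from -0.06 to -0.13 for Acot9, and neither was called. Of the transcripts of Acot9, 15.2% of 50-base stretches also occur in Acot10, and of the exonic bases of Acot8 12.3% overlap with Snx21 on the other strand, where fragments could be counted for either gene.

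The levels of the expressed thioesterases were also summed, with Acot13, which is no member. The summed FPKM of Acot2, Acot7, Acot8, Acot9 and Acot13 was 205 ± 6.60 in controls, 185 ± 16 with nintedanib, 192 ± 10.8 with X-rays and 198 ± 16.4 with both (SD, n = 3). Within that sum the share of Acot2 was 23.7 ± 1.52% in controls, 4.14 ± 1.03% with nintedanib, 16.4 ± 0.915% with X-rays and 3.70 ± 1.03% with both. The share of Acot13 was 10.8 ± 0.544%, 24.2 ± 2.64%, 10.5 ± 1.11% and 23.1 ± 1.12% in the same order.

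Acsbg1 encodes an acyl-CoA synthetase for long and very long chains, known from brain, adrenal gland and testis, and lies at chromosome 9, 54604877 to 54661870, on the minus strand. Its level was 3.63, 3.74 and 3.73 FPKM in controls, 1.24, 1.23 and 1.0 with nintedanib, 9.80, 9.78 and 10.7 with X-rays, and 3.41, 4.03 and 3.50 with both. The libraries with both treatments overlapped with the controls, all X-ray libraries lay above every other library, and all nintedanib libraries lay below. The nintedanib values rested on 66 to 80 fragments in a library and the X-ray values on 578 to 686.

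Mean FPKM of Acsbg1 was 3.19-fold lower with nintedanib than in controls, -1.12 (SE 0.0748) on the log2 scale, and -1.07 without the third nintedanib library. With X-rays it was 2.73-fold higher than in controls, 1.24 (SE 0.0748). In irradiated cells nintedanib made a difference of -1.26 (SE 0.0748), and in nintedanib-treated cells X-rays made one of 1.10 (SE 0.0748). In mean FPKM these were 2.77-fold lower and 3.14-fold higher. With a pseudocount of 0.1 the drug's values were -1.60 without X-rays and -1.45 with them. Those of X-rays were then 1.42 without the drug and 1.57 with it, so which effect was larger depended on the scale. The combination differed from control by -0.02 (SE 0.0748), with an interval of -0.18 to 0.15. The interaction was -0.13 (SE 0.106), with an interval of -0.37 to 0.10. It was 0.15 at a pseudocount of 0.1 and with voom, and -0.24 with a common sum, and was not called in any of these. Acsbg1 and Acsl3 were the members with opposite calls for the drug and for X-rays against control. For Acsbg1 both values were beyond 1 log2 unit, and for Acsl3 they were 0.72 and -0.39.

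Acsl3, a synthetase of the endoplasmic reticulum and of lipid droplets, lies at chromosome 1, 78657825 to 78707743. It was at 19.5, 17.5 and 18.4 FPKM in controls, 26.8, 30.7 and 35.9 with nintedanib, 13.6, 14.2 and 13.5 with X-rays, and 25.7, 25.2 and 25.4 with both. No groups overlapped, and the order was nintedanib, both, control and X-rays. Nintedanib went with a 1.69-fold higher mean in unirradiated cells, 0.72 (SE 0.0891), and a 1.85-fold higher one in irradiated cells, 0.84 (SE 0.0891). Without the third nintedanib library, the highest of its group, the value against control was 0.61. X-rays went with a 1.34-fold lower mean, -0.39 (SE 0.0891), which was not called with FPKM scaled to a common sum (-0.29). The combination was at 0.44 (SE 0.0891) against control. Its difference from nintedanib alone was -0.27 (SE 0.0891), called only without the first nintedanib library, and -0.17 without the third.

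Acsl1, which in liver, fat and heart supplies acyl-CoA for oxidation and for triglyceride, lies at chromosome 8, 46471037 to 46536051. It stood at 6.16, 6.15 and 6.63 FPKM in controls, 9.26, 8.34 and 8.34 with nintedanib, 5.85, 6.01 and 6.36 with X-rays, and 7.32, 7.55 and 8.07 with both. The 6 libraries with nintedanib lay above the 6 without it. The differences were 0.40 (SE 0.0636) for nintedanib against control (0.42 without nintedanib library 3), 0.29 (SE 0.0636) in irradiated cells and 0.24 (SE 0.0636) for both against control. For X-rays alone the value was -0.05 (SE 0.0636), with an interval of -0.19 to 0.09.

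Acsl5, a synthetase of mitochondria and endoplasmic reticulum that is abundant in the intestinal lining, lies at chromosome 19, 55251938 to 55297720. It was at 32.1, 33.3 and 33.2 FPKM in controls, 32.4, 29.7 and 27.2 with nintedanib, 42.5, 43.4 and 44.2 with X-rays, and 40.5, 41.0 and 39.3 with both. All 6 irradiated libraries lay above the 6 others. X-rays made a difference of 0.39 (SE 0.0654) in cells without the drug and 0.43 (SE 0.0654) in cells with it. The latter was not called when only those 2 groups were fitted. Nintedanib against control was at -0.14 (SE 0.0654), called only without the first nintedanib library, and at -0.08 without the third. On the other strand, the exons of Acsl5 overlap with those of Zdhhc6 over 8.31% of their bases, and those of Acsl1 with Gm45244 over 9.91%. Those of Acsl3 overlap with Utp14b over 5.60% on the same strand, where counting by strand could not separate the pair. Whether the counting used strand is not given in the sources used here.

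**Figure D2:**
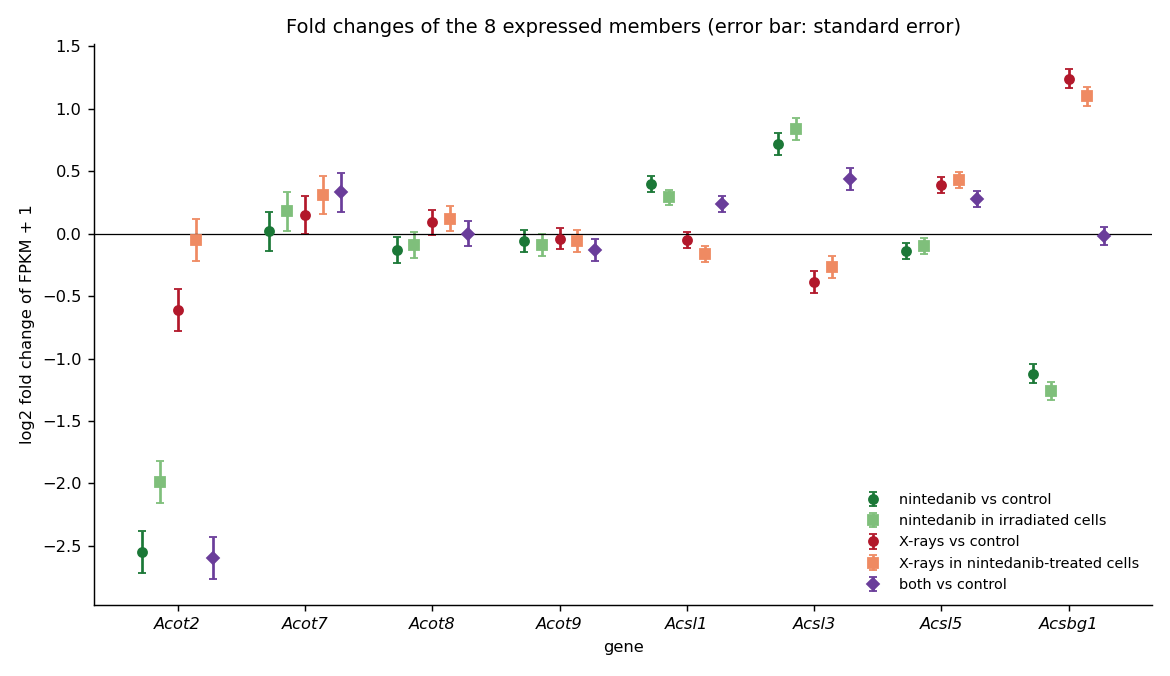
Log2 fold change of FPKM + 1 with its standard error for the 8 expressed members in 5 comparisons of 2 groups. For Acsbg1 the effects of nintedanib (-1.12 and -1.26) and of X-rays (1.24 and 1.10) point in opposite directions, while Acot2 is lower by 1.99 or more wherever nintedanib is compared with no nintedanib.

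The mix of long-chain synthetases differed with treatment. The summed FPKM of Acsl1, Acsl3, Acsl4 and Acsl5 was 73.7 ± 1.54 in controls, 95.5 ± 3.89 with nintedanib, 78.4 ± 0.888 with X-rays and 95.8 ± 1.81 with both (SD, n = 3). Acsl5 made up 44.6 ± 1.68% of it in controls, 31.3 ± 3.70% with nintedanib, 55.3 ± 0.899% with X-rays and 42.1 ± 1.46% with both. Acsl3 made up 25.0 ± 0.944%, 32.5 ± 3.67%, 17.6 ± 0.379% and 26.5 ± 0.256% in the same order. With the combination both shares were near those of the controls, at a larger sum. Acsl4, a synthetase that prefers arachidonic acid and is no member, made up 21.8 ± 0.942%, 27.1 ± 1.31%, 19.4 ± 0.902% and 23.4 ± 1.72%. Acsl6 was at 0.504 to 1.04 FPKM and was not tested.

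**Figure D3:**
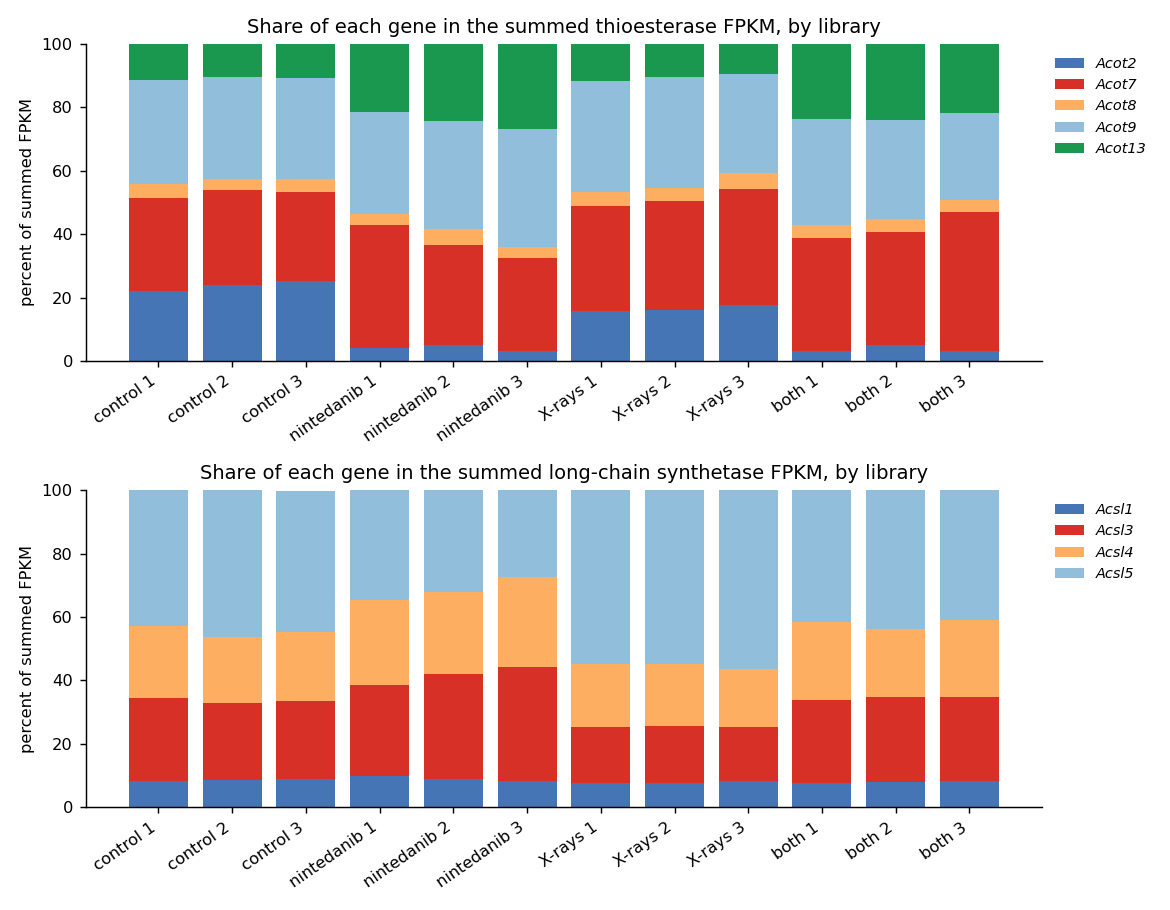
Percent of the summed FPKM taken by each gene in every library, for 5 thioesterases (top) and 4 long-chain synthetases (bottom). The share of Acot2 is 3.04 to 5.17% in the 6 libraries with nintedanib and 15.8 to 25.2% in the others, and the Acsl5 share is largest in the 3 X-ray libraries.

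Over the 8 tested members, 2 were called higher and 2 lower with nintedanib against control, beside 19.7% and 22.0% of all tested genes. With X-rays against control 2 were higher and 2 lower, beside 8.04% and 9.90%. With both against control 3 were higher and 1 lower, beside 22.3% and 25.0%. With both against X-rays 2 were higher and 2 lower, beside 17.2% and 17.3%, and with both against nintedanib 2 were higher and none lower, beside 3.17% and 2.37%. In the interaction limma called no member, beside 0.00769% of all genes, which is 1 gene. The members' values lay between -0.13 and 0.56, 1 of the 8 intervals (that of Acot2) left out 0, and voom called none. Since the members were chosen with these comparisons known, nothing is read from these counts. The comparisons share groups, so their values for a member are not independent of each other. The share of called genes that were higher was 47.2% for nintedanib and 44.8% for X-rays, and became 60.0% and 69.8% when FPKM was scaled to a common sum. For X-rays it was 59.6% with voom on the recovered fragments.

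Other genes of acyl-CoA metabolism were taken from lists made with earlier results of these data known. Their counts and p-values are therefore given as a description only. In the lists of routes, PPAR targets and receptors, the genes named with a fold change were picked by their small adjusted p. Of 20 other acyl-CoA synthetases 7 were expressed, and with nintedanib 5 rose and 1 fell, beside 19.7% and 22.0% of all tested genes. Their median log2 fold change was 0.66, beside -0.02 over all genes. Acss2, which makes acetyl-CoA from acetate, rose from 2.69 to 11.4 FPKM, by 1.75 (SE 0.0955, limma adjusted p = 3.81e-07). Aacs, which activates acetoacetate for lipid synthesis, rose from 30.8 to 81.9 FPKM, by 1.38 (SE 0.110, limma adjusted p = 3.91e-06). The fatty acid transport proteins Slc27a1 and Slc27a4, which carry synthetase activity, rose by 0.91 (SE 0.101) and 0.41 (SE 0.0941), and Acsl4 rose by 0.66 (SE 0.0848). Acsf3, a malonyl-CoA synthetase of mitochondria, was called at -0.32 (SE 0.0961, limma adjusted p = 0.0203), a call lost in 4 of 21 alternatives, among them leaving out the third nintedanib library or control library 2. Slc27a3 was at 0.02 (SE 0.140). In irradiated cells nintedanib gave the same counts, 5 higher and 1 lower of 7, beside 17.2% and 17.3% of all tested genes. With X-rays against control limma called none of the 7 in either direction, 0 had an unadjusted p under 0.05, and voom called 0. Of all tested genes, limma called 8.04% higher and 9.90% lower with X-rays. Among nintedanib-treated cells, X-rays went with a lower level of Acss2, at -0.64 (SE 0.0955, limma adjusted p = 0.00402), the only one of the 7 called there. In that comparison 3.17% of all tested genes were called higher and 2.37% lower. At an unadjusted p under 0.05, 3 of the 7 were lower there and 0 higher.

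Of 11 other thioesterases only Acot13 and Them4 were expressed. Acot13, a thioesterase associated with mitochondria, rose with nintedanib from 22.2 to 44.6 FPKM, by 0.97 (SE 0.105, limma adjusted p = 3.27e-05). All 3 nintedanib libraries lay above all 3 controls, so that the direction was opposite to that of Acot2. In irradiated cells nintedanib made a difference of 1.15 (SE 0.105). With X-rays neither Acot13 nor Them4 was called by limma or voom, or had an unadjusted p under 0.05. Them4, also mitochondrial, fell with nintedanib from 3.59 to 1.76 FPKM, a log2 fold change of -0.75 (SE 0.121, limma adjusted p = 0.000521).

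Genes of the routes that use acyl-CoA were counted in the same way, beside the 19.7% of all tested genes that were called higher and the 22.0% called lower with nintedanib. No enrichment was tested. Of 23 tested genes of the carnitine shuttle and mitochondrial β-oxidation 11 rose and 2 fell (median 0.21), among them Crat, Cpt1a, Cpt1c and Acadm at 0.67, 0.64, 0.62 and 0.50. Cpt1a is the gate of fatty acid entry into mitochondria. The count of genes that fell was 1 in 14 of 21 alternatives. Of 15 peroxisomal genes 9 rose and 2 fell (median 0.24). Acox3, an acyl-CoA oxidase, was at 0.60, and Acox2, an oxidase of bile acid and branched-chain oxidation, at -1.08. Of 6 acyl-CoA and fatty acid binding proteins 3 rose and 1 fell (median 0.17), led by Dbi, the acyl-CoA binding protein, from 23.8 to 78.1 FPKM, by 1.67 (SE 0.117, limma adjusted p = 1.61e-06), and by Fabp5 at 1.07. Acbd6 was at -0.60. Acbd3 was at 0.14 and lost its call in 14 of 21 alternatives. Of 13 genes of coenzyme A synthesis and breakdown 4 rose and 3 fell (median 0.03), with Pank3 at 0.36, Ppcdc at -0.61, Dcakd at -0.41 and Coasy at -0.26, the last not called in 4 of 21 alternatives (without control library 1 or 2, with a common sum, or with voom).

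Of 11 expressed PPAR target genes 7 rose and 1 fell with nintedanib (median 0.36), beside 19.7% and 22.0% of all tested genes. The lists overlap, and the 7 that rose each also stand in the mitochondrial, peroxisomal or coenzyme A list. The gene that fell was Angptl4, a secreted inhibitor of lipoprotein lipase, at -1.16 (SE 0.151, limma adjusted p = 0.000114). Of the receptors, Ppara stayed at or under 0.101 FPKM and Pparg at or under 0.0569 in every library, while Ppard stood at 7.58 to 10.1 FPKM. Rxrb, a partner of these receptors, fell from 24.5 to 15.0 FPKM, a log2 fold change of -0.68 (SE 0.139, limma adjusted p = 0.00228).

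With X-rays against control fewer genes of these lists were called, as over all tested genes, of which 8.04% were higher and 9.90% lower. In the mitochondrial list 3 were higher and 2 lower of 23 (median -0.04, equal to that of all genes), with Cpt2 at 0.39 and Acaa2 at -0.32 among them. In the peroxisomal list 3 of 15 were higher and none lower (1 lower at an unadjusted p under 0.05), and the calls of Crot and Scp2, at 0.27 and 0.27, were lost in 10 and 12 of 21 alternatives, including leaving out X-ray library 1 or 2 or control library 1 or 3. Of the binding proteins Acbd3 alone was called, at 0.23, and lost without control library 3 or X-ray library 2. Of the coenzyme A list none was higher (1 at an unadjusted p under 0.05, and 1 called with voom) and 3 were lower, Pank4 at -0.31, Coasy at -0.32 and Dcakd at -0.36. Among PPAR targets none was higher (1 at an unadjusted p under 0.05, and 1 called with voom) and 2 were lower, Acaa2 and Angptl4, the latter at -0.58, and Rxrb was called at -0.49. The calls of Rxrb and Angptl4 were each lost in 6 alternatives, among them without control library 2 or 3 or X-ray library 1 or 2, and for Rxrb also without X-ray library 3. That of Dcakd was lost in 8, that of Acaa2 without X-ray library 2, that of Coasy without X-ray library 2 or with a common sum, and that of Pank4 with a common sum. No difference between the effects of drug and X-rays on a list was tested.

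**Figure D4:**
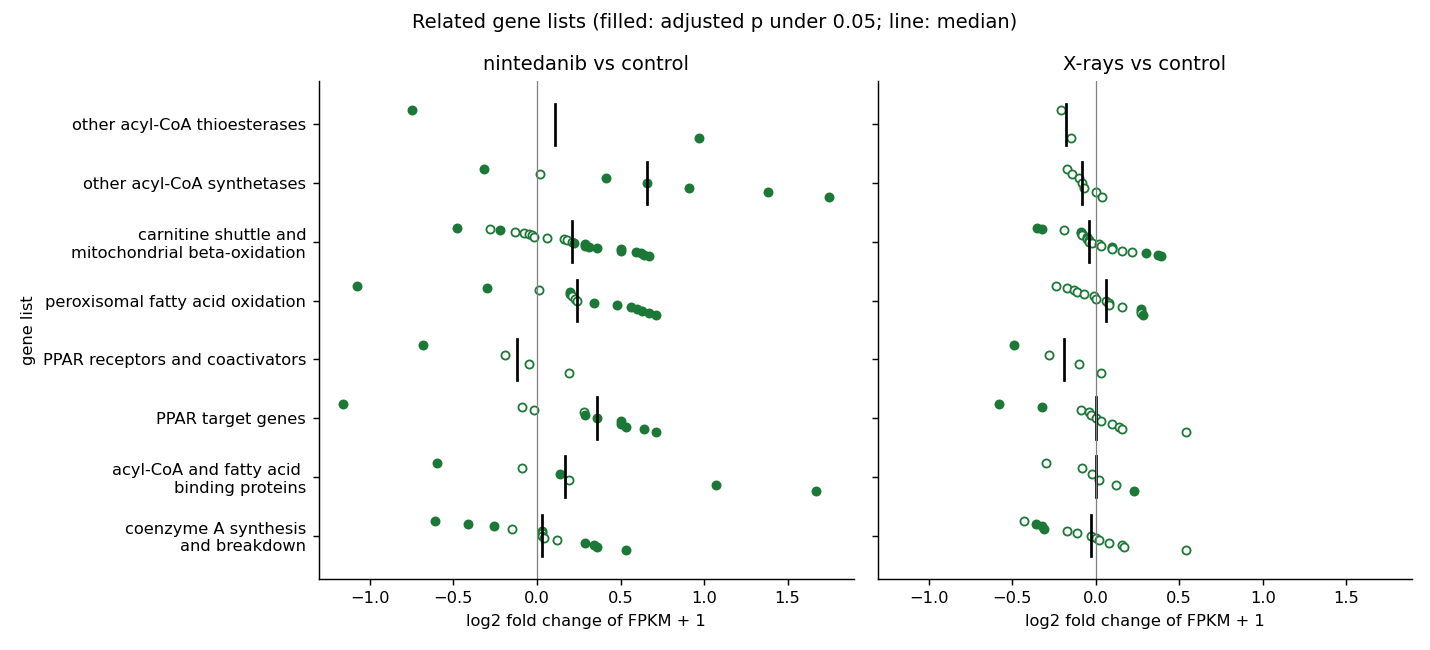
Log2 fold change of FPKM + 1 for each tested gene of 8 related lists, with nintedanib (left) and with X-rays (right) against control. Filled points passed the threshold and the black line is the list's median, which for the other synthetases is 0.66 with nintedanib and -0.08 with X-rays.

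The genes whose levels followed a member most closely over the 12 libraries were looked up for the 3 members with the widest range of log2(FPKM + 1), as a description. Acot2 was followed by Ak5 (Pearson r of 0.997), Stk40 (0.995) and Tars (0.995), of which Tars, a threonyl-tRNA synthetase, went from 72.7 FPKM in controls to 27.8 with nintedanib, 57.4 with X-rays and 28.0 with both. Acsbg1 was followed by Chd5 (0.990), Hyls1 (0.968) and Terf1 (0.966). Terf1, a telomere-binding protein, stood at 8.66, 6.36, 15.5 and 10 FPKM in controls, nintedanib, X-rays and both. Acsl3 was followed by Ndrg3 (0.988) and Frrs1 (0.985), which stood at 8.10, 11.5, 7.02 and 9.71 FPKM and at 9.89, 15.6, 7.86 and 14 FPKM in the same order. These are among the highest of all tested genes outside the members, so a high r was built into the choice, and the libraries share group, depth and culture.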

How the data were processed

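Gene expression was measured in 12 libraries of MC38 cells, made from total RNA with a SMARTER mRNA kit per the labels' protocols. Groups and replicate numbers came from the sample titles. The authors deposited FPKM values for 54532 genes with coordinates and gene model lengths, per the file headers, and the submitters' processing notes name GRCm38 and mm10. Which aligner, counting tool, annotation release and strand setting were used is not given in the sources used here.

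The members and gene lists were chosen with earlier results of these data known, and so was the naming rule. It named all members, every tested gene of the lists of other thioesterases and synthetases, from each other list up to 4 genes of smallest adjusted p with nintedanib and up to 3 with X-rays, the genes of the chromosome 12 cluster, and for the 3 members of widest range the 3 genes of highest Pearson r. A few genes it selects are not reported here. The motifs searched were chosen after the values were seen.

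In every library 100% of nonzero FPKM values, times length, were whole multiples of 1 step (tolerance 0.01), which gave 16103528 to 18196615 fragments and 16.4 to 18.7 fragments per FPKM and kilobase. The depth implied was between 0.970 and 0.982 of the total for controls but between 1.00 and 1.03 for the 3 treated groups. The FPKM thus rest on a factor for each library that is not this fragment total. No source describes the factor, and how it arose was not tested. Against scaling by the fragment total, this factor raises FPKM in controls relative to the treated groups and lowers values against control. The median over all genes against control was -0.02 for nintedanib, -0.04 for X-rays and -0.03 for both. With voom on the fragments it was 0.04, 0.02 and 0.03. Fragments are not independent molecules, and intervals from counts cover counting error only. Replicates differed by more than sampling noise (chi-square per gene of 4.30 to 30.2 in the 12 pairs).

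The test was limma 3.58.1 (empirical Bayes with trend, two-sided) in R 4.3.3 on log2(FPKM + 1), fitted once to all 12 libraries with 4 group means (8 residual degrees of freedom). It covered the 13012 genes that reached 1 FPKM in 3 or more libraries, with Benjamini-Hochberg adjustment in each of 6 comparisons and a threshold of 0.05. The fit was tested on simulated data for 13012 genes, of which 100 were changed by 1 and 100 by 2 log2 units. For nintedanib against control it called 75 of the first and 95 of the second. This was below the recovery first asked for, which was then asked only of changed genes at a mean FPKM of at least 5, where it called 57 of 59 and 65 of 65. Changes of 1 in genes at lower FPKM can therefore be missed. The simulation gave all genes the same fixed spread and changed far fewer genes than were called in the data (5419 for nintedanib against control). Its recovery rates may therefore not hold for the data. The labels do not say from which cultures replicates came beyond the 3 repeats, so p-values measure the spread between these samples. Alternatives were another pseudocount (0.1), a stricter filter (FPKM of 5) and none, a common sum of FPKM, voom on recovered fragments, no trend, only the groups compared, protein-coding genes only, a replicate block, and each library left out. Promoters came from RefSeq (GRCm38.p6), and transcripts and overlaps from GENCODE M21, where all 9 members had the deposited coordinates. Protein sequences were not used here.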

Additional observations from a re-analysis of the deposited data

How the results depend on the processing

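Each result was recomputed under 21 alternatives (20 for the interaction), 12 of which left out 1 library. Of the 48 log2 fold changes of members 18 were called, no called value changed sign, and the calls that were lost or gained are given above with their genes. Uncalled member values differed in sign from the reported value in 35 of 622 cases. The count of members higher with both treatments against nintedanib was 1 with only the groups compared, and members lower with X-rays against control numbered 1 with a common sum and 1 with no filter. With nintedanib against control, genes that fell numbered 0 of the other thioesterases at a filter of FPKM 5, 0 of the other synthetases with a common sum or only the groups compared, 1 in the mitochondrial list with a common sum, no filter, no trend, voom or the replicate block, and 1 in the peroxisomal list at a filter of FPKM 5, a common sum or voom. Genes called for both treatments against nintedanib numbered 722, and 43 with only the groups compared, where 4 residual degrees of freedom remain. The interaction called 1 gene as reported, 3 at a filter of FPKM 5, 4 with a common sum, 6 with no filter, 4 for protein-coding genes, 0 at a pseudocount of 0.1, 0 with the replicate block and 2 with voom.

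With 1 library left out, genes called ranged from 1145 to 2612 for X-rays against control (2334 with all libraries; 1331 without control library 2, 1248 without control library 3, 1519 and 1145 without X-ray library 1 and 2), from 263 to 652 for both against nintedanib (263 and 426 without combination library 2 and 3, 365 and 454 without nintedanib library 2 and 3), and from 0 to 5 for the interaction. Members lower ranged from 1 to 2 for X-rays against control and from 0 to 1 for both against nintedanib. Genes that fell with nintedanib ranged from 0 to 1 among the other synthetases, from 1 to 2 in the mitochondrial list and from 1 to 2 in the peroxisomal list. The causes were not tested.

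Libraries with the same replicate number did not deviate together (correlations of -0.298 to 0.202 over 18 pairs, 3 of them above 0.1, and 4 of 12 libraries closest to their own number), so the numbers were not taken to pair the samples. With the replicate block, genes called for both against nintedanib numbered 444. No called member lost its call under the block. Depth limits mainly Acot1, at 17 fragments in all.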
